A study of Mus musculus with 8 samples.

Results

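The 9 genes described here, which glucocorticoid hormone is known to induce, were followed in the left ventricle of mice that overexpress the microRNA miR-100 in the heart: Fkbp5, Tsc22d3, Zbtb16, Sgk1, Dusp1, Cebpd, Klf9, Mt1 and Mt2. They were picked by name from the platform's gene symbols, and each of the 9 genes was represented by 1 row, so that 9 of 22206 rows of the array table are described. The tissue came from 8 male C57/BL6J mice aged 8 weeks and left untreated, of which 4 were wildtype (WT) and 4 carried a cardiac-specific microRNA-100 overexpression (miR-100). The promoter that drives the overexpression and the number of founder lines are not given in the sources used here, and neither is the time of day at which the hearts were taken from animals kept on a 12 h light and 12 h dark cycle. Each mouse was read on 1 array, and the values are log2 signals, so that a difference of 1 is a factor of 2. The labels do not say whether replicates share a litter or a day, so that p-values describe the scatter among these 8 arrays and nothing wider. In whole tissue, fewer cells of a type and less RNA per cell cannot be told apart.

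Glucocorticoids such as corticosterone enter the cell and bind the glucocorticoid receptor, which leaves its chaperone complex, moves to the nucleus and switches on genes that carry its response element. In heart muscle these genes take part in metabolism, ion transport, restraint of inflammation and the feedback that ends the hormone signal. The hormone follows a daily rhythm and rises with handling and stress. Fkbp5 belongs here for another reason, since its messenger RNA is a reported target of the miR-99/100 family. A microRNA of this kind can lower the messengers it binds, but need not. The comparison therefore asks whether Fkbp5 and the other hormone-induced genes differ between WT and miR-100 hearts, and whether they move together from mouse to mouse.

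The mature microRNAs of the family are shown because they share the bases that choose their targets. The sequences come from RefSeq (GRCm38.p6), and the capitals mark the seed, bases 2 to 8. miR-100-5p lies at chr9:41531437-41531458, miR-99a-5p at chr16:77598940-77598961 and miR-99b-5p at chr17:17830194-17830215, all on the plus strand.
miR-100-5p: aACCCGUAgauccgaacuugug
miR-99a-5p: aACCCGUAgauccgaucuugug
miR-99b-5p: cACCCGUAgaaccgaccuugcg
These were the 3 of 1738 mature mouse microRNAs in the table with this seed. No level of miR-100 itself is reported here, and target sites in Fkbp5 were not searched.

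All 9 genes had lower mean signals in the miR-100 hearts, and none of them passed the test. The differences ran from -0.94 for Sgk1 to -0.11 for Klf9 on the log2 scale, with a median of -0.44 against -0.015 over all rows, of which 53.1% lay below 0. The number of members with an adjusted p under 0.05 was 0 of 9 (limma, Benjamini-Hochberg over all rows), where 0.14% of all rows were called. At an unadjusted p under 0.05, 5 of 9 were lower, namely Sgk1, Tsc22d3, Dusp1, Mt1 and Cebpd, against 4.17% of all rows. The groups overlapped for each of the 9, while 2.33% of all rows had every miR-100 array below every WT array. In simulations of this comparison limma recovered 6.27% of rows changed by 0.5 and 64% of rows changed by 1. The changed rows were drawn from all rows, whose median within-group SD was 0.2457, while that of the members was 0.525. Recovery was not computed for rows as variable as most members. A count of 0 therefore does not show that these genes were alike in both groups. The count of 5 was 3 without WT replicate 1 or 3 or miR-100 replicate 2 or 4, and 2 without WT replicate 4.

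**Figure D1:**
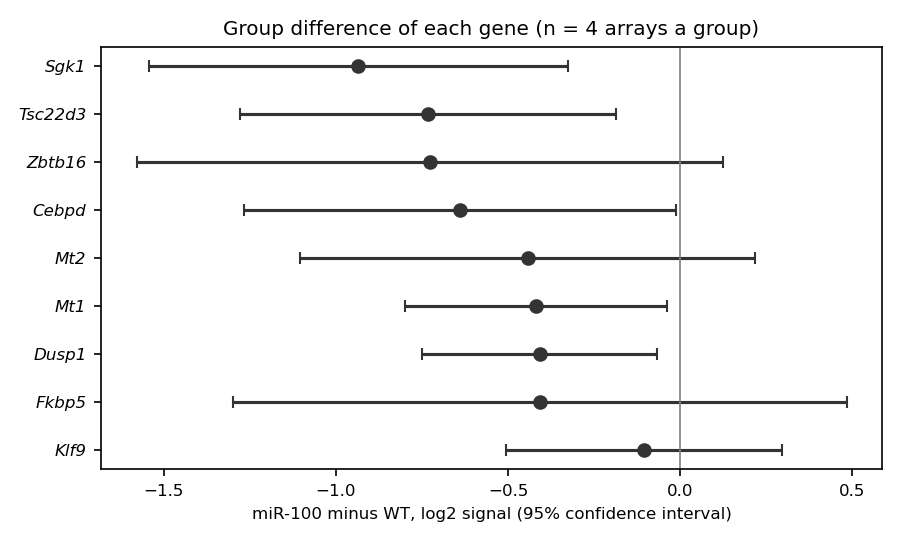
Group difference of each gene, miR-100 minus WT in log2 signal (horizontal axis), with its 95% confidence interval from limma (n = 4 arrays a group). All 9 points lie left of 0, and the intervals of Sgk1, Tsc22d3, Dusp1, Mt1 and Cebpd do not reach it before adjustment over all rows.

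Fkbp5 encodes FKBP51, a cochaperone that holds the glucocorticoid receptor in a state of low hormone affinity and is itself switched on by the receptor. The WT arrays gave log2 signals of 11.15, 10.85, 12.42 and 12.86 for replicates 1 to 4, and the miR-100 arrays gave 11.80, 10.54, 11.95 and 11.36. WT replicates 3 and 4 were the highest of the 8 arrays and miR-100 replicate 2 the lowest. WT replicates 1 and 2 lay below miR-100 replicates 1, 3 and 4, against the direction of the means. The means were 11.82 ± 0.97 in WT and 11.41 ± 0.63 in miR-100 hearts (SD, n = 4 in each group), a difference of -0.41 (95% confidence interval -1.30 to 0.48). Neither the two-sided exact permutation test over 70 assignments (p = 0.514, smallest possible 0.0286) nor limma (adjusted p = 0.886) called it. The interval holds a fall of 1.30 as well as no difference, so these arrays do not settle whether the Fkbp5 messenger RNA was lowered. Without WT replicate 4 the difference was -0.06, and without WT replicate 2 it was -0.73. Its within-group SD of 0.82 was at percentile 99.7 of all rows, and Zbtb16 (0.78), Mt2 (0.58), Cebpd (0.55), Sgk1 (0.52) and Tsc22d3 (0.46) also had SDs above percentile 95.

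**Figure D2:**
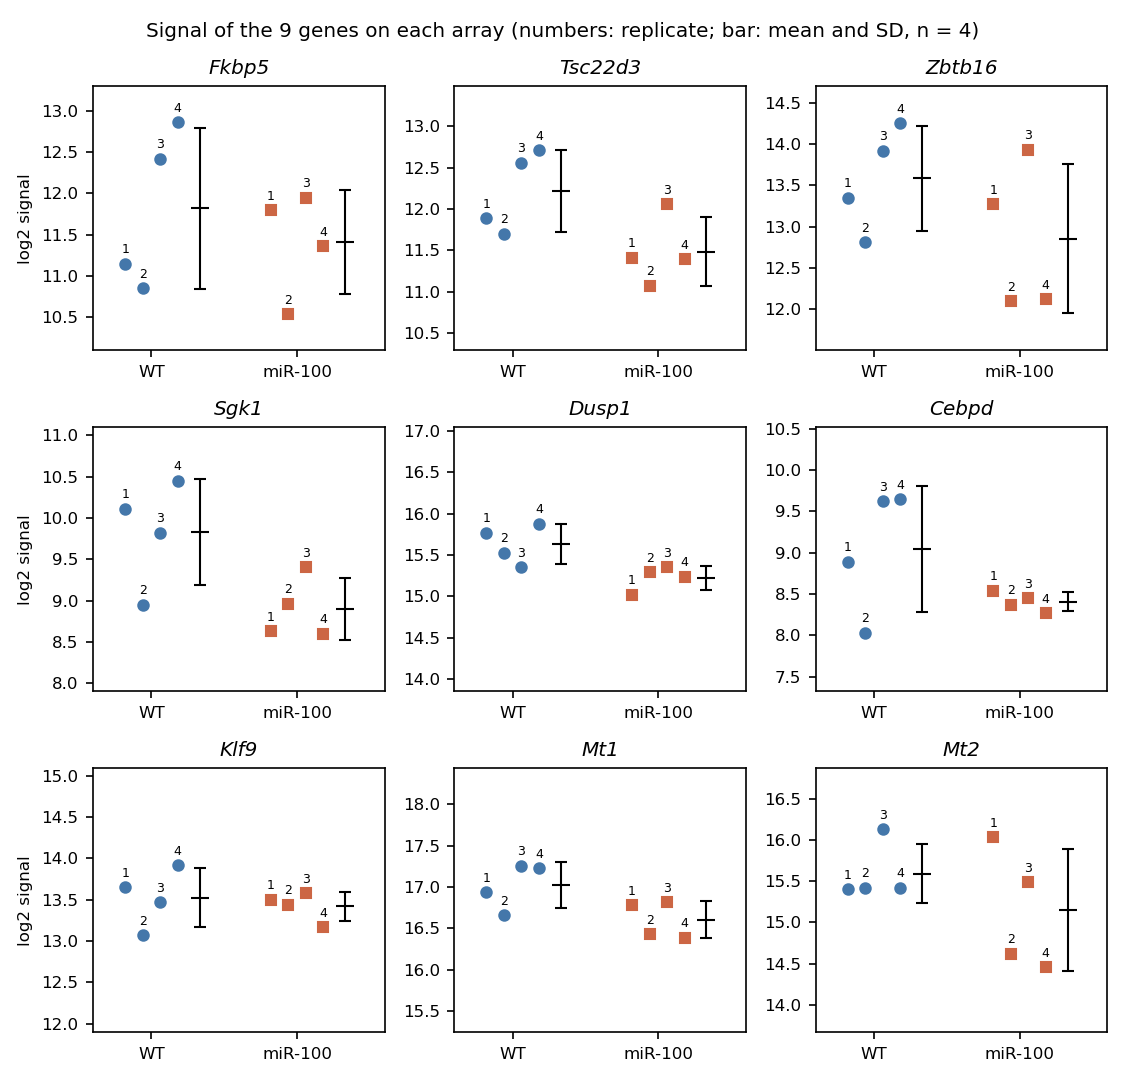
Log2 signal (vertical axis, the same span in each panel) of the 9 genes on the WT (circles) and miR-100 (squares) arrays, numbered by replicate, with the mean and SD of each group (n = 4). Every panel has overlapping groups, and WT replicate 2 is low while WT replicates 3 and 4 are high for Fkbp5, Tsc22d3, Zbtb16 and Cebpd.

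Among the transcriptional regulators, Tsc22d3 encodes GILZ, a leucine zipper protein that carries part of the anti-inflammatory action of the hormone. Its WT signals were 11.89, 11.70, 12.56 and 12.71, and its miR-100 signals 11.41, 11.07, 12.06 and 11.39. Of the miR-100 arrays 3 lay below every WT array, and replicate 3 reached into the WT range. The difference was -0.73 (SE 0.25, 95% confidence interval -1.28 to -0.19), with a limma adjusted p of 0.432.

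Zbtb16 encodes PLZF, a zinc finger repressor that responds strongly to glucocorticoids in many tissues. WT signals of 13.35, 12.81, 13.92 and 14.25 stood against miR-100 signals of 13.27, 12.10, 13.93 and 12.12. The miR-100 group split widely, since replicates 2 and 4 were below all WT arrays while replicates 1 and 3 lay inside the WT range. Its difference of -0.73 had an interval from -1.58 to 0.12 and a limma adjusted p of 0.709.

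Cebpd encodes C/EBP-delta, an acute-phase transcription factor. Its WT signals were 8.89, 8.03, 9.62 and 9.65, and its miR-100 signals 8.54, 8.37, 8.45 and 8.27. Here the WT mice were scattered (SD 0.76) and the miR-100 mice were close to each other (SD 0.12), with WT replicate 2 below all of them. The difference was -0.64 (SE 0.29, limma adjusted p = 0.634), and it was -0.98 without WT replicate 2.

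Klf9 encodes a Krüppel-like factor that glucocorticoid and thyroid hormone both induce. WT signals of 13.65, 13.07, 13.47 and 13.92 enclosed all miR-100 signals, which were 13.50, 13.44, 13.58 and 13.17. It had the smallest difference of the 9, -0.11 (95% confidence interval -0.50 to 0.29, limma adjusted p = 0.945), and the sign turned to 0.026 without WT replicate 4.

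Sgk1 encodes a kinase that raises sodium channels and transporters at the cell surface and is induced by glucocorticoids and mineralocorticoids. Its WT signals were 10.11, 8.95, 9.82 and 10.45, and its miR-100 signals 8.63, 8.96, 9.40 and 8.60. All miR-100 arrays lay below WT replicates 1, 3 and 4, and WT replicate 2 alone fell among them. The difference of -0.94 (SE 0.28, 95% confidence interval -1.54 to -0.33) was the largest of the 9, with a limma adjusted p of 0.346, or 0.118 without WT replicate 2, where it was -1.23. Its unadjusted p was 0.00547.

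Dusp1 encodes a phosphatase that shuts off p38 and JNK kinases and is induced by glucocorticoids and by stress signals. Signals of 15.77, 15.53, 15.35 and 15.88 in WT stood against 15.02, 15.29, 15.35 and 15.24 in miR-100 hearts. The 2 groups met at a single value, since WT replicate 3 and miR-100 replicate 3 both gave 15.35 and the other miR-100 arrays were lower. The difference was -0.41 (SE 0.16, 95% confidence interval -0.75 to -0.07, limma adjusted p = 0.528), and its within-group SD of 0.20 was the smallest of the 9, at percentile 29.1 of all rows.

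The metallothioneins Mt1 and Mt2 are small cysteine-rich proteins that bind zinc and copper, and glucocorticoids, zinc and inflammation all induce them. The genes are direct neighbours on the chromosome and closely related. Their sequences were not compared here, and the sources used here do not say how far the probes of each row tell the transcripts apart. Mt1 had WT signals of 16.94, 16.66, 17.26 and 17.23 and miR-100 signals of 16.78, 16.43, 16.82 and 16.39. Mt2 had WT signals of 15.40, 15.42, 16.13 and 15.42 and miR-100 signals of 16.03, 14.62, 15.49 and 14.46. For both genes miR-100 replicates 2 and 4 were the lowest arrays of all, and the remaining miR-100 arrays lay in the WT range. The differences were -0.42 for Mt1 (SE 0.18, limma adjusted p = 0.591) and -0.44 for Mt2 (SE 0.31, limma adjusted p = 0.803). For Mt2 the difference was -0.74 without miR-100 replicate 1 and -0.21 without replicate 4 of that group.

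Promoter windows, from 250 bases before to 50 bases after a gene start, were taken from RefSeq (GRCm38.p6) for 7 of the 9 genes, all but Zbtb16 and Cebpd. They were searched on both strands for the 6 bases of a single receptor contact, AGAACA. The receptor's full palindrome, which is AGAACA, 3 bases of any kind and TGTTCT, was searched as well. So were TGCGCNC, a form of the core of the metal response element, the cyclic AMP response element TGACGTCA and the E-box CACGTG. Other forms of the metal response core were not searched and are not marked. The full palindrome contains 2 single contacts by construction. Sgk1 has 6 windows, and the one at chr10:21993640-21993939 on the plus strand holds the full palindrome at bases 62 to 76, as 1 of 3 such windows among 32817 of all genes (0.00914%). The single contact is in 19.0% of windows. Dusp1, chr17:26508423-26508722 on the minus strand, holds the cyclic AMP element, found in 1.79% of windows. Mt1, chr8:94178839-94179138, holds 1 match to TGCGCNC and Mt2, chr8:94172368-94172667, holds 2, with both windows on the plus strand. Of all windows 15.4% hold 1 or more, the Dusp1 window and another Sgk1 window among them. These windows are shown because they hold the letters of elements of hormone, kinase and metal response. The capitals mark single contacts for Sgk1, the cyclic AMP element for Dusp1 and matches to TGCGCNC for Mt1 and Mt2.
Sgk1: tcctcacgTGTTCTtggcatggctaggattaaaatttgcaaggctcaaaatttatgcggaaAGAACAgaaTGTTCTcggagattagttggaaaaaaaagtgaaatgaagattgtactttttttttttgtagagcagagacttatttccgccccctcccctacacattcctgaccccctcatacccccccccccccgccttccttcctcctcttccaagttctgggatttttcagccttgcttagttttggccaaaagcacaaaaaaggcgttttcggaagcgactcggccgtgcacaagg
Dusp1: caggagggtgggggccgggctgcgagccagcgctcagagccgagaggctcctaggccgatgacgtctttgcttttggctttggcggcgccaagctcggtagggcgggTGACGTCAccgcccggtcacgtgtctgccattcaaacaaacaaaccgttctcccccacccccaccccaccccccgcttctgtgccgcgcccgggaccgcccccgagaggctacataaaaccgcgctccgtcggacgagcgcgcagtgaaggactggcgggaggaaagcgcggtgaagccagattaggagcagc
Mt1: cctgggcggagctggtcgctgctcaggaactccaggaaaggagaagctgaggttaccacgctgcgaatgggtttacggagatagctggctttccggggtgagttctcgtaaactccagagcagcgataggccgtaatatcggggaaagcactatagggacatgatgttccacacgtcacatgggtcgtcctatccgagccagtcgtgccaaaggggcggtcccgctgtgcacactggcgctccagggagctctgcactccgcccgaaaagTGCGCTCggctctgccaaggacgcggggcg
Mt2: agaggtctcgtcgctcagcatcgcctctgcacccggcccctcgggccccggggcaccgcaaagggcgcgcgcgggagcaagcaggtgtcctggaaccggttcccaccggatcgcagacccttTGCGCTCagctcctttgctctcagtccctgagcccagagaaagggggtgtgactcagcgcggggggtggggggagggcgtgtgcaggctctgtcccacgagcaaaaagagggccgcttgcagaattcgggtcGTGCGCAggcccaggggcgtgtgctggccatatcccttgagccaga
The windows of Fkbp5, Klf9, Dusp1, Mt1 and Mt2 hold no AGAACA, of the 3 windows of Tsc22d3 1 holds it, and Fkbp5, Dusp1 and the printed Sgk1 window hold 1 E-box each, as 7.15% of windows hold 1 or more. A match is a description of letters and not a measured site, and receptor elements of these genes can lie outside the windows.

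Within each group most members were high on the same arrays and low on the same arrays. To see this apart from the group difference, each value was expressed as its deviation from its group mean. WT replicate 2 was below the WT mean for all 9 genes and WT replicate 4 above it for 8, while miR-100 replicate 3 was above its group mean for all 9 and miR-100 replicate 4 for 1. Averaged over the 9 genes, the deviations were -0.12, -0.58, 0.25 and 0.46 for WT replicates 1 to 4, and 0.17, -0.29, 0.40 and -0.27 for miR-100 replicates 1 to 4. The mean level of the 9 genes therefore ran from 12.56 to 13.60 in WT and from 12.31 to 13.00 in miR-100 hearts, a range within each group that exceeds the median group difference. WT replicate 2 also stood apart when all rows were used, since it scored -38.2 on principal component 1 while the remaining WT arrays scored from -13.0 to -3.49. In the miR-100 group replicate 2 stood apart likewise, at 30.8 against 8.96 to 13.5. Principal component 1 held 21.7% of the variance. Every WT array scored below 0 on it and every miR-100 array above 0, so this component also separates the groups.

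**Figure D3:**
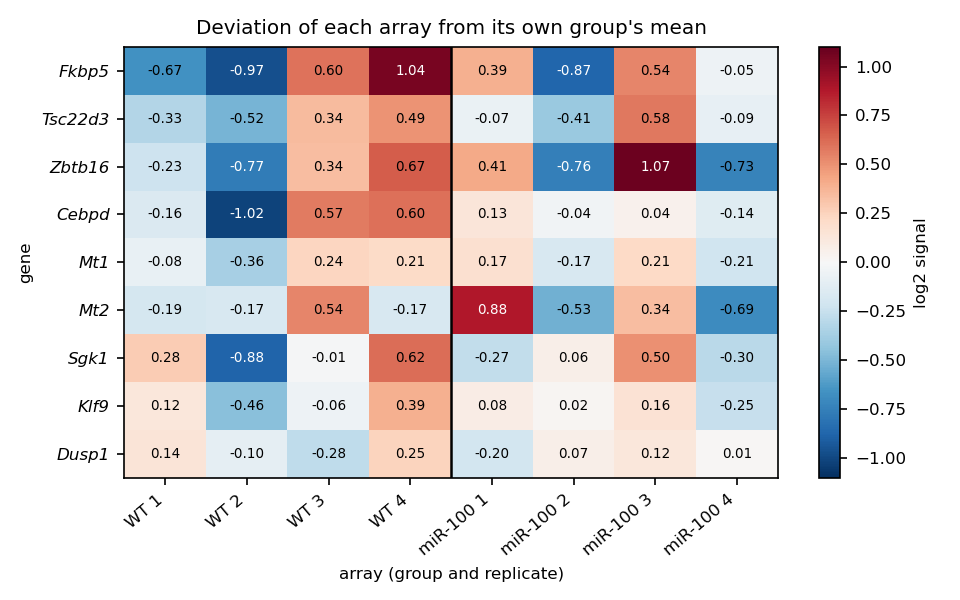
Deviation of each array (columns, group and replicate) from the mean of its own group for each gene (rows), in log2 signal, red above and blue below the mean. The column of WT replicate 2 is blue for all 9 genes and that of miR-100 replicate 3 red for all 9, and on WT replicate 3 Sgk1, Klf9 and Dusp1 lie below the mean while the other 6 genes lie above it.

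Of the 36 pairs of members, 34 had a Pearson correlation above 0 over the 8 arrays, with a median of 0.66 and a range from -0.56 to 0.93. Over all pairs of rows the median was 0.00, and 5.53% of them reached 0.66 or more (6.06% among the brighter rows). The 36 pairs share the same 8 arrays and are not independent. The exact permutation of arrays within groups, with 576 arrangements, gave an unadjusted p under 0.05 for 10 pairs and an adjusted p under 0.05 for 0 of 36 by Pearson, and likewise 10 and 0 by Spearman. The smallest p it allows is 0.00174, which for a single pair is 0.0625 after Benjamini-Hochberg adjustment over the 36. Within the WT mice alone the median correlation was 0.70 and within the miR-100 mice 0.67, each over 4 arrays. Without WT replicate 2 the median over both groups was 0.51, and without that array and miR-100 replicate 3 it was 0.41, with 25 of 36 pairs above 0.

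Fkbp5 tracked Tsc22d3 most closely, with r = 0.93 (two-sided exact permutation p = 0.0191, adjusted 0.0859) and rho = 0.93 (exact permutation p = 0.00521, adjusted 0.0625). Without the 2 arrays farthest from the median of Fkbp5 the r was 0.86, and within WT it was 0.998 and within miR-100 mice 0.82. For Fkbp5 and Zbtb16 r was 0.84 (exact permutation p = 0.00868, adjusted 0.0729) and rho 0.86 (exact permutation p = 0.00521, adjusted 0.0625), and r was 0.71 without the 2 farthest arrays. In each group Tsc22d3 and Zbtb16 tended to be high where Fkbp5 was high. Tsc22d3 and Zbtb16 had the lowest p of all pairs, with r = 0.88 and rho = 0.95 (exact permutation p = 0.00174 for each, adjusted 0.0625), and r = 0.73 without the 2 farthest arrays.

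Mt1 followed Zbtb16 with r = 0.93 (exact permutation p = 0.00694, adjusted 0.0729) and rho = 0.83 (exact permutation p = 0.0260, adjusted 0.111), and r was 0.97 without the 2 farthest arrays. Mt1 and Mt2 were less alike, with r = 0.72 and rho = 0.66 (exact permutation p = 0.0764 for each, adjusted 0.183 and 0.180) and r = 0.73 without the 2 farthest arrays. Sgk1 and Klf9, a kinase and a transcription factor, had r = 0.92 (exact permutation p = 0.0122, adjusted 0.0729) and rho = 0.93 (exact permutation p = 0.0104, adjusted 0.0938), with r = 0.71 without the 2 farthest arrays. Over all 8 arrays Dusp1 was the member that followed the others least, with a median r of 0.09. With Mt2 it gave r = -0.56 (exact permutation p = 0.101, adjusted 0.227) and rho = -0.44 (exact permutation p = 0.222, adjusted 0.315), and the sign turned to 0.29 without the 2 farthest arrays, so that this relation rests on them. Without those arrays, WT replicate 3 and miR-100 replicate 1, the r of Dusp1 went from 0.068 to 0.931 with Cebpd. It went from 0.535 to 0.985 with Klf9 and from -0.045 to 0.878 with Mt1. For Fkbp5, Tsc22d3, Zbtb16 and Sgk1 other arrays were left out, and the r of Dusp1 was then -0.046, -0.67, -0.174 and 0.6.

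**Figure D4:**
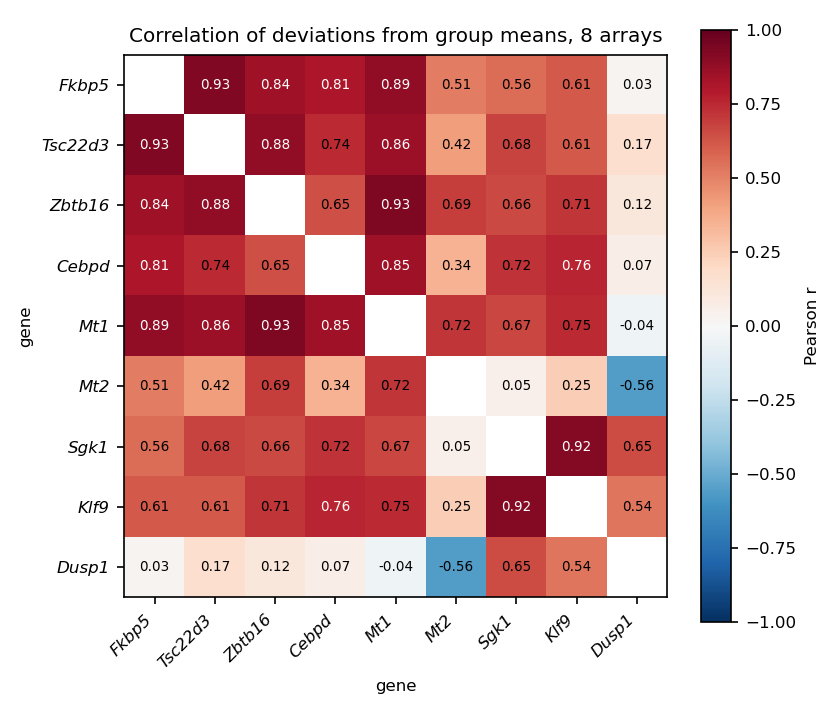
Pearson correlation of deviations from the group means over 8 arrays for each pair of the 9 genes (both axes), red for positive and blue for negative values. The block from Fkbp5 to Mt1 holds values from 0.65 to 0.93, and the row of Dusp1 is pale except toward Sgk1 and Klf9 in red and Mt2 in blue.

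Ranked by their correlation with Fkbp5 among 9991 brighter rows with a symbol, Tsc22d3 came at place 18, Mt1 at 42, Zbtb16 at 85 and Cebpd at 132, whereas Klf9, Sgk1 and Mt2 came at 730, 1004 and 1233 and Dusp1 at 4955. Outside the members the 5 genes most like Fkbp5 over the 8 arrays were Ccdc28b (r = 0.98), Ptgds, a prostaglandin D synthase (0.97), Septin8 (0.97), Fbxo32, a ubiquitin ligase of muscle wasting (0.97), and Emc10 (0.96). With 8 arrays high values are common in a large table, and 27 of 9983 such rows reached 0.9. The 5 most like the mean deviation of the 9 genes were Cmklr1 and Mast2 (0.98 each) and Nisch, Lncpint and Klhl38 (0.97 each). None of these 10 genes other than Ptgds passed the test between the groups.

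Of 34 other genes known to be induced by glucocorticoids in various tissues, 33 were measured, and they did not share a direction between the groups. In all 17 were higher and 16 lower in miR-100 hearts, with a median of 0.035. Of the 33, 3 passed over all rows, where 0.14% of all rows were called. The list was chosen with earlier results of these data known, so its counts of genes at a threshold are a description and not a test of the list. Lcn2, a secreted siderophore-binding protein, rose by 2.76 (SE 0.48, limma adjusted p = 0.0431), Ptgds rose by 1.99 (SE 0.33, limma adjusted p = 0.0392), and Nfkbia, the inhibitor of NF-kappaB, fell by 1.15 (SE 0.18, limma adjusted p = 0.0252). These calls were lost in most fits that leave out an array. Lcn2 and Ptgds passed without WT replicate 4 or miR-100 replicate 2 but in none of the other 6 such fits, and Nfkbia passed without WT replicate 1 alone. The differences kept their sign in these smaller fits. They ran from 2.46 to 3.27 for Lcn2, from 1.71 to 2.30 for Ptgds and from -1.28 to -1.02 for Nfkbia. A further 6 genes had an unadjusted p under 0.05, and all of them but Per1 were picked out for their values. Together 9 of the 33 were at that level, against 7.73% of all rows in either direction. The cell cycle inhibitor gene Cdkn1a (2.06, limma adjusted p = 0.234) and the lipase inhibitor gene Angptl4 (8.24 against 7.24 in WT, limma adjusted p = 0.428) were higher, and the arrestin-domain gene Arrdc2 (-1.41, limma adjusted p = 0.338), the mTOR inhibitor gene Ddit4 (-0.96, 0.467), Lyve1 of lymphatic vessels and macrophages (-0.64, 0.470) and the clock gene Per1 (-0.78, 0.176) were lower.

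Many of these genes nevertheless varied from mouse to mouse with the members. Of the 33, 30 correlated above 0 with the mean deviation of the 9 members and 18 (54.5%) above 0.5, with a median of 0.52. Among 9983 brighter rows 15.9% were above 0.5, with a median of 0.03. Those rows all lie above the median of row means, whereas 7 of the 33 genes lie below it, so the sets differ in brightness. Fbxo32 (0.96), Sesn1 (0.93), Ddit4 (0.91), Ptgds (0.90), Cdkn1a (0.89) and Klf15 (0.88) were the closest, and were picked out for that. Others had correlations near 0, among them Foxo1 (0.01) and Tat (0.05). The Tat row is at percentile 2.1 of row means, near the dim end of the table, so its value says little. Another 3 were below 0, with Slc2a4 the lowest (-0.43). Ptgds and Cdkn1a thus had higher means in the miR-100 hearts than in WT and yet, within each group, tended to be high where the members were high. The correlations are given as a description with no p, and all rest on the same 8 arrays.

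None of the genes of the receptor, its chaperones and the enzymes that set the hormone's level in the cell passed the test. Nr3c1, the glucocorticoid receptor gene, had 7.90 ± 0.27 in WT and 7.96 ± 0.18 in miR-100 hearts (SD, n = 4 in each group), a difference of 0.06 (95% confidence interval -0.30 to 0.42). Nr3c2, the mineralocorticoid receptor gene, differed by -0.07 (-0.43 to 0.30), and Hsd11b1, whose enzyme regenerates active hormone, by 0.14 (-0.26 to 0.54). Hsd11b2, whose enzyme inactivates it, differed by -0.39 with no overlap between the groups (limma adjusted p = 0.590, unadjusted 0.0327), in a row at percentile 17.2 of row means, near the dim end of the table. Fkbp4, the cochaperone that opposes Fkbp5 at the receptor, differed by 0.02 (-0.32 to 0.36). Hsp90aa1, an inducible form of the chaperone HSP90 that holds the receptor, was higher by 0.83 in miR-100 hearts with no overlap between the groups (limma adjusted p = 0.222). Of the 14 measured genes of this list 0 passed and the median was 0.025. At an unadjusted p under 0.05, which 7.73% of all rows met in either direction, 1 was higher and 1 lower.

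**Figure D5:**
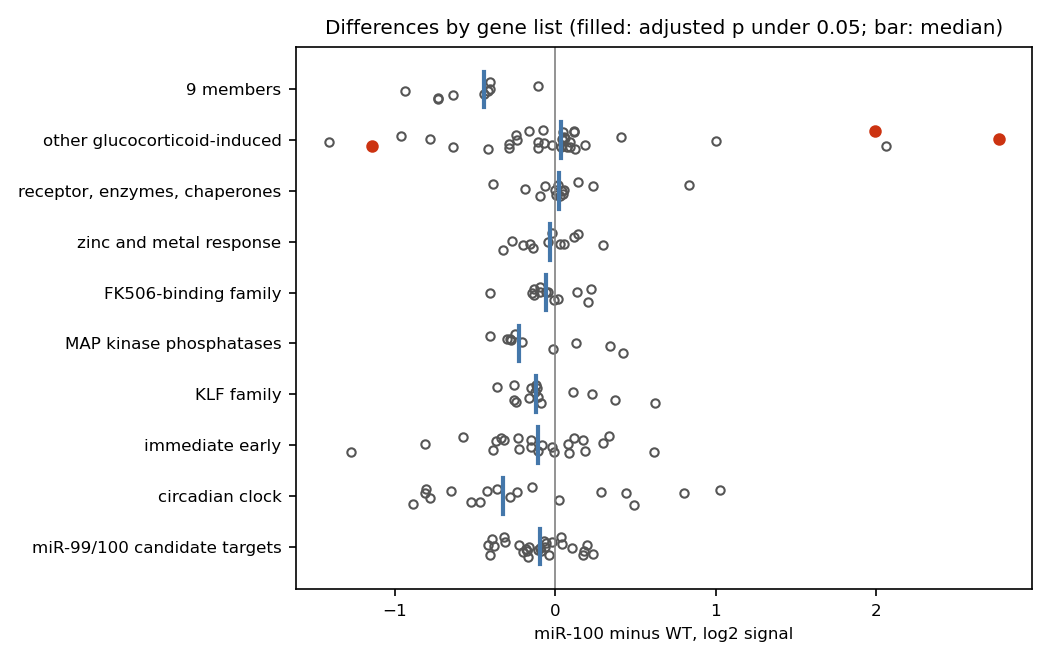
Differences between miR-100 and WT (log2 signal, horizontal axis) of the measured genes of 10 lists (rows), open where the adjusted p was 0.05 or more and filled where it was lower, with the median of each list as a bar. The 9 members all lie left of 0, while the other glucocorticoid-induced genes spread from -1.41 to 2.76.

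Of the members' gene families, counted with the member, 0 genes passed over all rows (limma). The counts of lower genes in the lists below stand beside 53.1% of all rows that were lower. At an unadjusted p under 0.05, which 7.73% of all rows met in either direction, no FK506-binding protein was found. The phosphatases and the SGK list had 1 gene each, the member itself. The TSC22 and C/EBP lists had 2 each, all lower and the member among them, and the KLF list had 1, which was higher. Among 13 FK506-binding proteins 9 were lower, with a median of -0.06, and Fkbp1a and Fkbp15, with the lowest p, differed by 0.22 and 0.21. Among 10 MAP kinase phosphatases 7 were lower, with Dusp4 at -0.30 next to Dusp1, in a dim row. Of the 4 TSC22 genes Tsc22d1 was lower by 0.54 without overlap of the groups (limma adjusted p = 0.306). In the SGK list of 5 genes, which includes their ligase target Nedd4l at 0.21, 4 were lower. Of 5 C/EBP genes 4 were lower, and Cebpb had -0.44 without overlap of the groups (limma adjusted p = 0.399). Among 15 KLF genes 11 were lower, with Klf10 at 0.62 and Klf11 at 0.37 having the lowest p. The 12 zinc and metal response genes had a median of -0.03, 0 of them at an unadjusted p under 0.05. In that list Mtf1, the zinc-sensing activator of the metallothionein genes, differed by -0.14, and the zinc transporter genes Slc39a14 and Slc39a6 by -0.33 and 0.30. Among 27 candidate targets of the miR-99/100 family, Fkbp5 included, 0 passed and 20 were lower, against 53.1% of all rows. Their median was -0.10, against -0.015 over all rows. Smarca5 and Trib2, the 2 with an unadjusted p under 0.05 (7.73% of all rows), stood at -0.42 and -0.38 (limma adjusted p = 0.459 and 0.618).

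Several of the members also answer to the circadian clock or to acute stimulation, so those lists are given beside them. Of 18 clock genes 12 had an unadjusted p under 0.05, 4 higher and 8 lower, against 7.73% of all rows, and 0 passed over all rows. Per3 and Per2 were lower by 0.81 and 0.89 (limma adjusted p = 0.0548 and 0.106). Per2 passed without WT replicate 1 (limma adjusted p = 0.0387) but in no other fit that leaves out an array, where the limma adjusted p reached 0.296. Per3 passed under 4 other settings of the fit. The mean level of the clock list ran from 9.46 to 9.69 in WT and from 9.41 to 9.48 in miR-100 hearts. That mean averages over opposite differences, 6 genes higher and 12 lower, so it can stay close while single genes differ. Of 23 immediate early genes 0 passed and 3 were lower at an unadjusted p under 0.05, among them Egr1 at -1.27 and Zfp36 at -0.81 (limma adjusted p = 0.331 and 0.355), and the mean level ran from 7.13 to 7.42 and from 7.06 to 7.21. Egr1 passed without WT replicate 3 (limma adjusted p = 0.0240) but in no other fit that leaves out an array, where the limma adjusted p reached 0.549. The part of clock phase or acute stimulation in the members' differences was not tested.

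The arrays carried the markers of the labelled tissue. All 7 cardiomyocyte markers were among the brightest rows, with mean levels from 18.69 to 18.77 in WT and from 18.68 to 18.74 in miR-100 hearts, while the ventricle-poor atrial markers stayed between 5.40 and 5.99. None of the measured endothelial (6), fibroblast (5), mural (6), macrophage (5), neutrophil (4), lymphocyte (7), adipocyte (5), erythroid (1) and skeletal muscle (5) markers passed over all rows. At an unadjusted p under 0.05, which 7.73% of all rows met, the count was 3, all picked out for their values. They were the mural marker Acta2 at 1.11 (limma adjusted p = 0.203), the neutrophil marker S100a8 at -0.37 and the adipocyte marker Adipoq at 0.43. The last 2 lie in dim rows. Of the 6 mural markers 3 were higher and 3 lower, with a median of -0.017, and the lower ones were Myh11, Tagln and Pdgfrb. Acta2 passed without miR-100 replicate 4 (limma adjusted p = 0.0442) but in no other fit that leaves out an array, where the limma adjusted p reached 0.398. The part of cell composition in the members' differences was not tested.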

How the data were processed

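The table deposited by the authors holds log2 signals, 1 per transcript cluster and array. The submitters' processing notes name Transcriptome Analysis Console 4.0. How probes were summarized and normalized, and on which build, is not given in the sources used here. Column medians lay between 5.70 and 5.74, so the columns had been scaled alike. Gene symbols came from the platform annotation.

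Differences, miR-100 minus WT, were fitted on all 22206 rows without a filter with limma 3.58.1 in R 4.3.3 (lmFit and eBayes) and adjusted by Benjamini-Hochberg at 0.05. Fkbp5 also had an exact permutation test. Correlations used deviations from group means. For lists, the brightest row stood for a gene. The members and lists were chosen with earlier results of these data known. The text names all members, Nr3c1, Nr3c2, Hsd11b1, Hsd11b2, Mtf1, Fkbp4 and Per1, each list's called genes (up to 3 a direction) or otherwise the 2 with the lowest p, and the 5 most like Fkbp5 and the member mean; others are said to be picked for their values. Tests were first run on simulated data. Alternatives covered moderation, array weights, normalization, filters, a replicate block and leaving out each array. The number of arrays limits precision.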

Additional observations from a re-analysis of the deposited data

Results flagged for a closer look

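In 51 named genes and 2 groups of 4 arrays each, 4 of 102 groups held an array far from the other 3, where chance flags about 1 in 20. Mt2 gave 16.13 on WT replicate 3 against 15.40 to 15.42 on the other WT arrays. The mineralocorticoid receptor gene Nr3c2 gave 9.88 on miR-100 replicate 4 against 10.29 to 10.37. The zinc sensor gene Mtf1 gave 9.41 on WT replicate 4 against 9.87 to 9.93. The clock gene Per3 gave 10.99 on WT replicate 3 against 11.26 to 11.31.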

How the results depend on the processing

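With 0 of 9 members called, the count stayed at 0 under all settings tried, including an adjusted threshold of 0.10, and all 9 differences stayed below 0 except that of Klf9 without WT replicate 4. Without single arrays, 2 to 6 members had an unadjusted p under 0.05, and 0 to 2 of the other glucocorticoid-induced genes passed. Without removing group means, 13 of 36 member pairs passed. That setting lets the shared group difference enter the correlation, and it also permutes all 8 arrays together, which allows smaller p-values. The part of each in this count was not tested. The other settings gave 0, among them leaving out WT replicate 2 and miR-100 replicate 3, chosen after seeing the data. Where arrays are left out, fewer arrangements remain and the smallest possible p is larger, so a count of 0 there says little. Differences near 0 changed sign: Fkbp4 was -0.0056 with quantile normalization and Cmklr1 -0.039 with array weights, and without single arrays the ranges were -0.26 to 0.026 for Klf9, -0.038 to 0.17 for Nr3c1, -0.16 to 0.051 for Nr3c2, -0.078 to 0.12 for Fkbp4, -0.20 to 0.19 for Cmklr1 and -0.24 to 0.08 for Lncpint. Fkbp5 ran from -0.73 to -0.06. Lcn2 had limma adjusted p of 0.170 with robust moderation, 0.0512 with array weights and 0.0534 with quantile normalization, and Per3 passed with an intensity trend (0.0147), with rows above the 25th (0.0477) or 50th (0.0296) percentile and with rows of 1 symbol (0.0476). The cause was not tested. With the replicate number as a block, 0 members passed and 6 had an unadjusted p under 0.05. Same-numbered arrays had correlations of deviations from -0.06 to 0.07, and 3 of 8 arrays correlated best with their own number. These values over all rows show no pairing by number, but they cannot exclude a shared litter or day. No detection call is used here, and dim rows such as Hsd11b2 may lie near background.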
